A study of Mus with 18 samples.

Results

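The injury response of WT lens epithelium was taken from 6 of the 18 libraries of a mouse RNA sequencing series, the 3 WT libraries labelled 0 h and the 3 labelled 6 h. They were chosen by title, and every gene row of their count tables was used. Of 55416 gene IDs, 29204 had a count in at least 1 of these libraries and 15440 passed the filter on low counts. In the study the lens fiber cell mass was removed from eyes of living mice, a model of cataract surgery, and the capsular bag with the attached lens epithelial cells (LECs) was collected. The time after surgery is given as h PCS (post cataract surgery). The WT animals were C57BL/6 mice, described as 3 to 5 months old, and each library pooled capsules of 5 mice. The 0 h group was collected right after fiber cell removal, so both groups had the operation and differ in the 6 h that followed it. By the series' design text the second eye was operated 6 h after the first and both were taken at once, so a 0 h library and a 6 h library may hold eyes of the same animals. The other 12 libraries came from Egr1KO mice, in which a neo cassette in exon 2 disrupts Egr1 in every tissue, and from FosBcKO mice, in which the lens-specific MLR10-Cre deletes a floxed Fosb. They entered only the comparisons that name them.

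The lens epithelium is a single sheet of cells under the anterior capsule, normally kept quiet and epithelial by lens transcription factors and by signals from its surroundings. Loss of the fiber cells is a wound to these cells. In many tissues the first answer to a wound is transcription of immediate early transcription factors (IETFs), genes that are switched on by existing signalling proteins, followed by cytokines, chemokines and prostaglandin enzymes. In the lens, cells left behind after surgery are known to become migratory or fibrotic over the following days.

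The 6 libraries held between 9920318 and 11249342 read pairs counted to genes. Values below are CPM, the read pairs of a gene scaled to a common number of counted read pairs, after TMM scaling of the libraries. CPM is not scaled to gene length, so CPM values of different genes are not compared with each other. The labelled cell type was borne out at 0 h by all 6 lens epithelium markers with a gene ID, of which Pax6 had 553 to 676 CPM and Foxe3 166 to 195 CPM. Other cells were present as well. Photoreceptor markers stood at 378, 206 and 559 CPM at 0 h and 3511, 2547 and 5533 CPM at 6 h, and erythroid, vessel endothelium and Schwann cell markers rose with them. The 9 macrophage markers with an ID summed to 2.75 to 46.7 CPM at 0 h and 19.5 to 30.3 CPM at 6 h, and 2 of them, Adgre1 and Itgam, were too low to be tested. No neutrophil or lymphocyte marker had a gene name that could be matched to an ID, so these cells were not analysed here. A pair of libraries differed from the rest of their group. The 0 h replicate 2 library had far lower counts of zonule and microfibril genes than the other two. The 6 h replicate 3 library had the lowest sums of lens epithelium markers and the highest sums of photoreceptor markers.

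At 6 h PCS, 2645 genes were differentially expressed (DEGs), which is 17.1% of the 15440 tested. A DEG had a false discovery rate (FDR) of at most 0.05 in edgeR's quasi-likelihood F-test, adjusted by Benjamini and Hochberg over all genes tested, and a change of more than 2-fold. Of these, 2082 were higher (13.5% of genes tested) and 563 were lower (3.65%). The genes that rose also changed more. Their median log2 fold change was 2.36, against -1.33 for the genes that fell, and 575 rose while 28 fell by more than 8-fold. Over all genes tested the median log2 fold change was -0.022. In 2641 of the DEGs the 3 libraries at 6 h did not overlap the 3 at 0 h, against 49.3% of all genes tested. Without the 6 h replicate 3 library 2060 genes were DEGs, and without the 0 h replicate 2 library 2070. Because capsules were pooled and nothing ties libraries to single animals, p-values here measure the spread between pooled libraries.

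**Figure D1:**
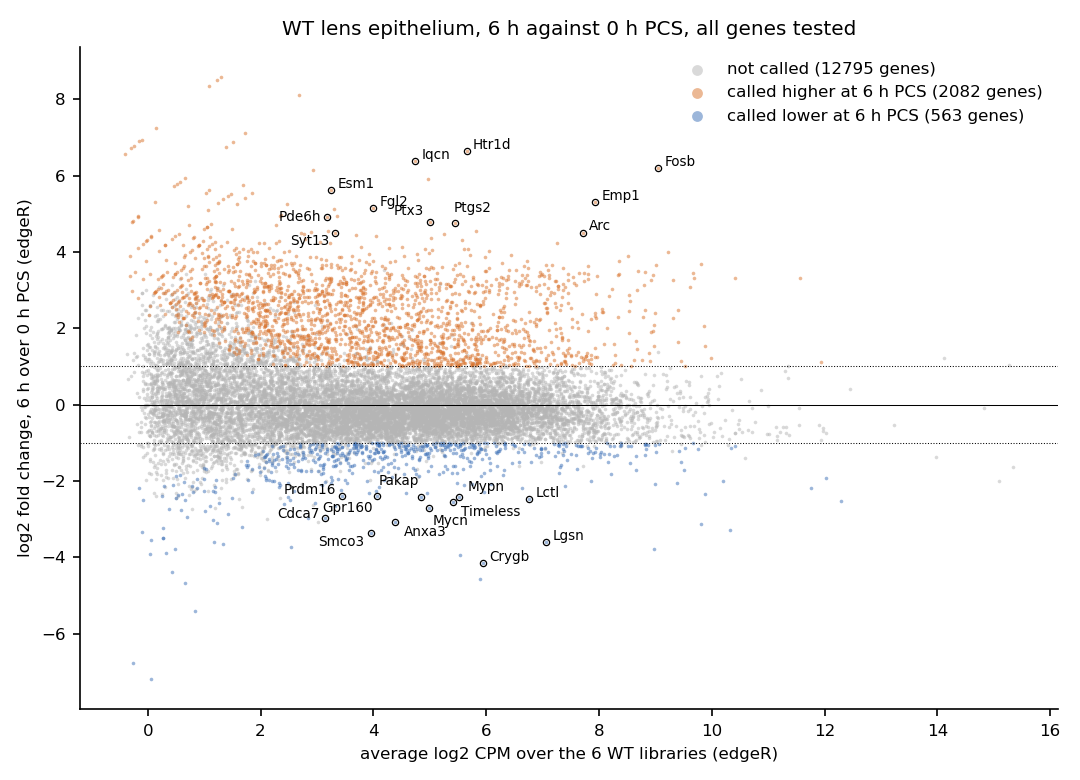
Log2 fold change (6 h over 0 h PCS, edgeR) against average log2 CPM for the 15440 genes tested in the 6 WT libraries. Orange points are the 2082 genes called higher, blue points the 563 called lower, dotted lines mark a 2-fold change, and circles mark named genes with the highest and lowest fold changes. Higher calls reach larger fold changes than lower calls.

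Retinal genes made up part of the higher calls. All 6 photoreceptor markers with an ID were called higher, with a median log2 fold change of 3.37. The arrestin gene Sag, which shuts off rod signalling, had 123, 80.3 and 244 CPM at 0 h and 1205, 1022 and 2255 CPM at 6 h (log2 fold change 3.33, SE 0.49, edgeR FDR 0.00347). Rod phosphodiesterase Pde6b (log2 fold change 3.26, edgeR FDR 0.00261), the disc rim protein Prph2 (log2 fold change 3.47, edgeR FDR 0.00213), the rod determination factor Nrl (log2 fold change 3.41, edgeR FDR 0.00298), the homeobox factor Crx (log2 fold change 3.18, edgeR FDR 0.00127) and the cone opsin Opn1sw (log2 fold change 3.93, edgeR FDR 0.00351) changed by similar amounts. Every 6 h library lay above every 0 h library for these genes. Within the 6 h group replicate 3 was highest, replicate 1 intermediate and replicate 2 lowest in 5 of the 6.

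Other cell types showed a like rise. The 5 erythroid genes, 4 globins and the heme synthesis enzyme Alas2, were all called higher, summing to 5.12 to 7.26 CPM at 0 h and 76.3 to 185 CPM at 6 h. The vessel endothelium genes Pecam1 (log2 fold change 3.70, edgeR FDR 0.0022), Cdh5 (log2 fold change 2.86, edgeR FDR 0.0139) and Kdr (log2 fold change 3.60, edgeR FDR 0.00213) were called higher too, and together with Tek, which was not tested, they summed to 3.32 to 7.66 CPM at 0 h and 49.8 to 108 CPM at 6 h. The myelin gene Mbp, the 1 Schwann cell marker with an ID, had 3.37, 1.42 and 3.78 CPM at 0 h and 17.7, 8.31 and 21.1 CPM at 6 h (log2 fold change 2.46, edgeR FDR 0.00839). Pigment cell markers summed to 19.2 to 111 CPM at 0 h and 98.7 to 282 CPM at 6 h and none of the 5 was called. Of the macrophage markers 1 of 7 tested was called, the lysosomal protein Cd68, which had 1.69, 0.664 and 1.39 CPM at 0 h and 8.35, 5.44 and 3.94 CPM at 6 h (log2 fold change 2.24, edgeR FDR 0.0152). In pooled tissue, fewer cells of a type and less RNA per cell cannot be told apart, nor can more cells and more RNA per cell.

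The order of the 6 h libraries in the photoreceptor markers recurred in other genes. Of the genes called higher, 1150 (55.2%) were highest in replicate 3 and lowest in replicate 2, compared with 22.9% of genes not called and 6.22% of genes called lower. A gene called higher had a median ratio of 1.73 between replicates 3 and 2 at 6 h, against 1.00 over all genes tested. A fit over all 18 libraries with the photoreceptor level as a term, chosen after seeing the data, called 73 genes higher and 2 lower of 17469 tested, 61 and 2 of them also called in the comparison of the WT libraries. At an unadjusted p under 0.05 this fit held 1356 genes. All 9 libraries at 6 h had more photoreceptor RNA (995 to 5533 CPM) than all 9 at 0 h (176 to 585 CPM), so the ranges did not overlap, no 0 h and 6 h libraries could be compared at a like level, and values from this fit are extrapolations. Of the 2082 genes called higher, 662 kept a log2 fold change over 1 with this term and 644 went under 0. How much of the higher calls came from cells other than LECs was not tested. A call kept or lost with this term, here and below, does not decide that question. Among the gene lists with no member called with this term were the cytokine, chemokine, prostaglandin, interferon, ERK feedback and mRNA decay lists. In the 35 gene lists described below, members called higher in the order of the photoreceptor markers were Adm, Hk1 and Vegfa of the hypoxia list and 1 gene each of 6 other lists, Il6, Socs2, Icam1, Spred3, Zfp36l1 and Fgf2, of which Vegfa and Spred3 are named after their values were seen. Members of these lists needed a symbol. Of the genes tested that had one, 24% were called higher and 4.98% lower, and a list's count near these shares is no result about that list.

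**Figure D2:**
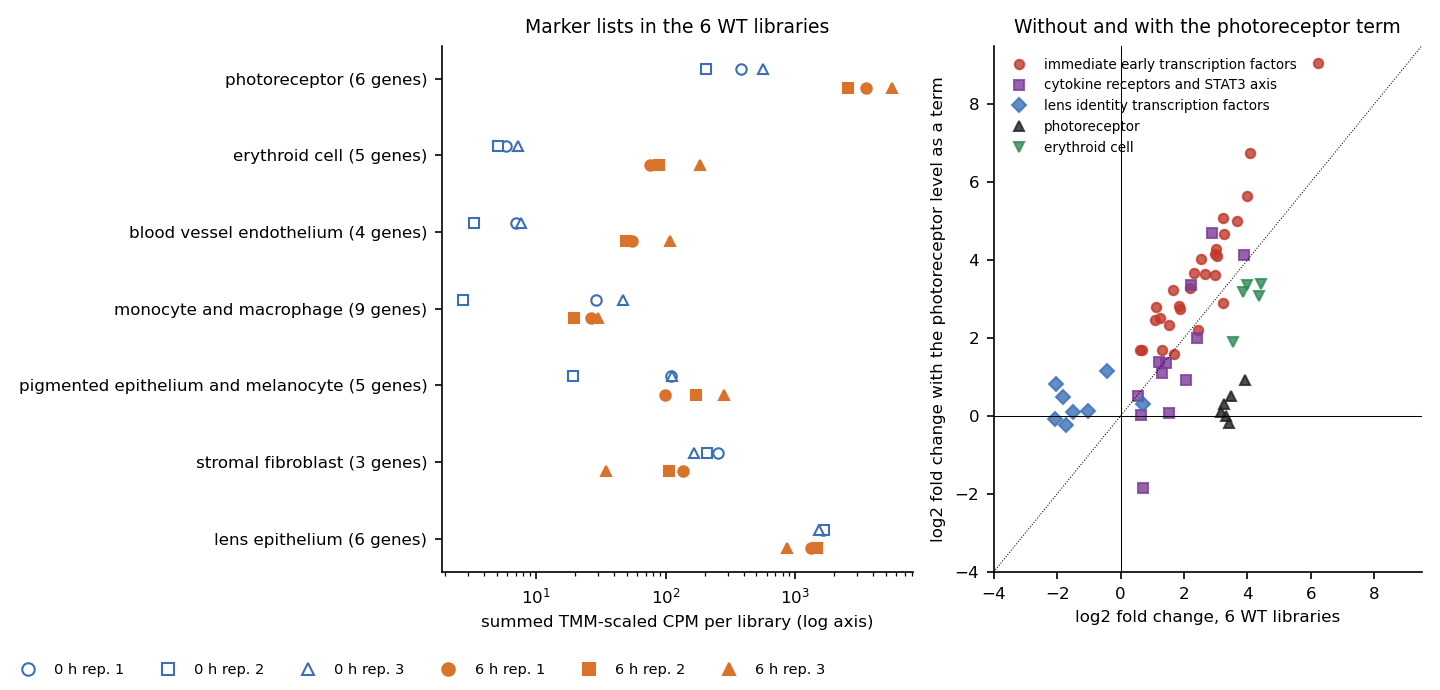
Left, summed TMM-scaled CPM of marker genes in each WT library (log axis; open blue symbols 0 h, filled orange symbols 6 h, symbol shape by replicate). Right, log2 fold change of list members with the photoreceptor level as a term in the fit (18 libraries) against that from the 6 WT libraries, with a dotted line of equality. Photoreceptor, erythroid and vessel markers separate by time, and with the photoreceptor term the IETFs lie between 1.60 and 9.04. The photoreceptor genes define that term, so their place near 0 on that axis follows from the fit.

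IETFs rose as a group. Of 27 members with an ID, 24 were called higher and none lower, with a median log2 fold change of 2.44. Fosb, a partner of Jun proteins in the AP-1 complex, had 27.3, 7.87 and 7.36 CPM at 0 h and 1515, 935 and 689.8 CPM at 6 h (log2 fold change 6.21, SE 0.66, edgeR FDR 0.00151). All 3 libraries at 6 h were far above the 3 at 0 h. The zinc finger factor Egr1 had 171, 70.7 and 145 CPM at 0 h and 2014, 1657 and 1294 CPM at 6 h (log2 fold change 3.69, SE 0.38, edgeR FDR 0.00127). Jund, the AP-1 subunit with steady expression in many cells, had 416, 492 and 549 CPM at 0 h and 1641, 1599 and 985 CPM at 6 h (log2 fold change 1.54, SE 0.26, edgeR FDR 0.00547). Neither gene's groups overlapped. None of the 24 called members was in the order of the photoreceptor markers at 6 h, and the highest 6 h library was replicate 1 or replicate 2 in each.

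The AP-1 genes Fos (log2 fold change 3.99, edgeR FDR 0.00315), Fosl1 (log2 fold change 2.44, edgeR FDR 0.00196), Junb (log2 fold change 3.25, edgeR FDR 0.00158), Jun (log2 fold change 1.64, edgeR FDR 0.00402) and Atf3 (log2 fold change 3.02, edgeR FDR 0.00238) were higher. Fos had 100.2, 29.1 and 82.5 CPM at 0 h and 1806, 814 and 740.2 CPM at 6 h. The factors Egr3 and Egr2, relatives of Egr1, had log2 fold changes of 2.96 and 2.68 (edgeR FDR 0.00106 and 0.00121). The orphan nuclear receptor Nr4a1 had 35.7, 30.5 and 34.8 CPM at 0 h and 284, 328 and 215 CPM at 6 h (log2 fold change 3.03, SE 0.20, edgeR FDR 0.000628), and its relatives Nr4a2 and Nr4a3 had log2 fold changes of 2.98 and 1.84 (edgeR FDR 0.00298 and 0.00136). In every one of these genes the 0 h and 6 h libraries were apart. Ier2 and Ier5, early response genes linked to growth factor signals, had log2 fold changes of 3.24 and 3.24 (edgeR FDR 0.000826 and 0.00104). The Krüppel-like factor Klf2 had 2.08, 2.94 and 1.29 CPM at 0 h and 52.1, 30.9 and 25.6 CPM at 6 h (log2 fold change 4.09, edgeR FDR 0.00121), and Klf4 had 69.3, 79.9 and 97.5 CPM at 0 h and 508, 551 and 164 CPM at 6 h (log2 fold change 2.31, edgeR FDR 0.00858). For Klf4 replicate 3 was well below the other two at 6 h, yet above every 0 h library. The growth regulator Myc had 18.1, 20.4 and 36 CPM at 0 h and 93.4, 130.5 and 47.2 CPM at 6 h (log2 fold change 1.86, edgeR FDR 0.0149).

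The 3 members without a call were Fosl2, Mafk and Nab2, and in each the 6 h replicate 3 library lay near or below the 0 h libraries. Fosl2 had 209, 235 and 237 CPM at 0 h and 509, 407 and 179 CPM at 6 h (log2 fold change 0.69, edgeR FDR 0.167). Nab2, a corepressor of Egr proteins, had 22.8, 17.3 and 15.8 CPM at 0 h and 50.2, 54 and 18.2 CPM at 6 h (log2 fold change 1.13, edgeR FDR 0.0643). With the 6 h replicate 3 library left out, 26 members were called higher, and leaving out any single library left 21 to 26. With the photoreceptor level as a term 9 members were called, with a median log2 fold change of 3.27 over the 27.

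**Figure D3:**
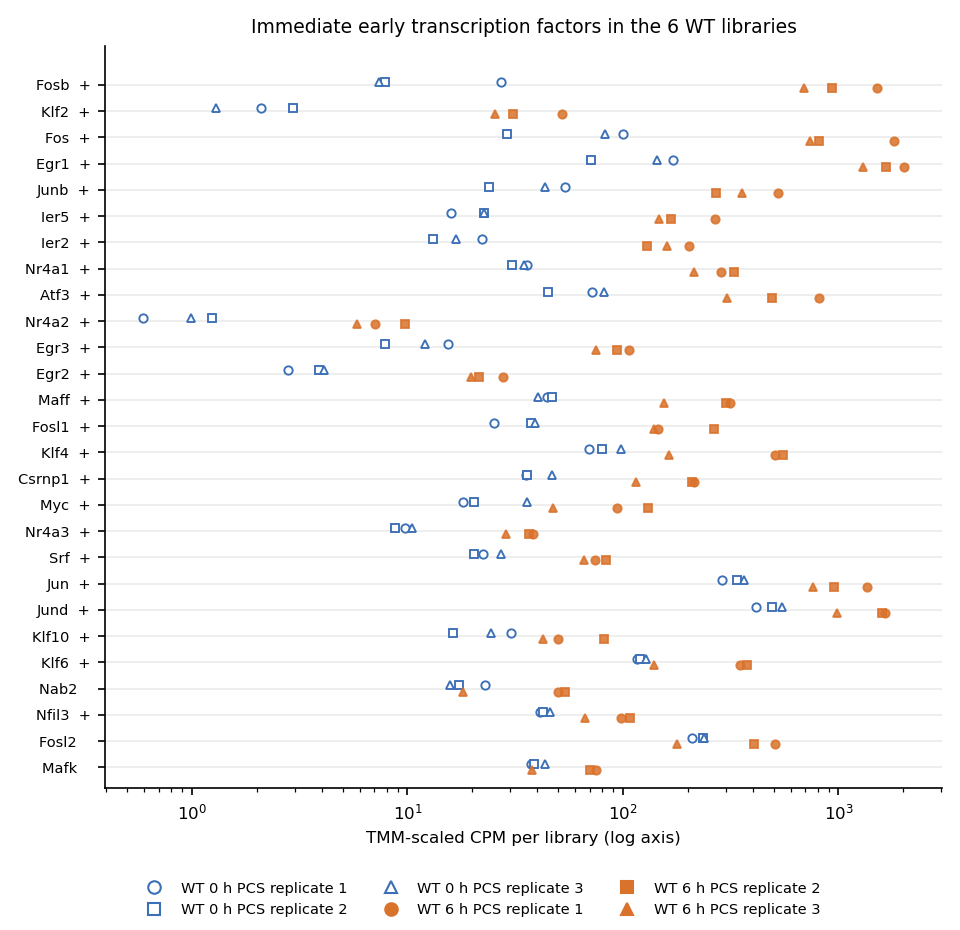
TMM-scaled CPM of the 27 IETFs in each of the 6 WT libraries (log axis), sorted by log2 fold change. Open blue symbols are 0 h, filled orange symbols 6 h, symbol shape gives the replicate, and + marks a gene called higher. The groups are apart in all 24 called genes, while Fosl2, Nab2 and Mafk overlap through the 6 h replicate 3 library.

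Genes that limit ERK or stress kinase signalling rose, as they commonly do after growth factor signals. Of 13 tested, 9 were called higher and none lower, with a median log2 fold change of 1.16 and 1 called member in the photoreceptor order. The nuclear ERK phosphatase Dusp5 had 54.9, 55.2 and 57.5 CPM at 0 h and 725, 712 and 328 CPM at 6 h (log2 fold change 3.40, SE 0.32, edgeR FDR 0.00116). Dusp1, an early phosphatase of stress kinases, had 73.7, 56.3 and 63 CPM at 0 h and 423, 244 and 247 CPM at 6 h (log2 fold change 2.24, SE 0.25, edgeR FDR 0.00153). Dusp10 (log2 fold change 2.40, edgeR FDR 0.00312) and Dusp7 (log2 fold change 1.16, edgeR FDR 0.00412) were also higher. Among members not called, Spry1 had 35.3, 35 and 29.4 CPM at 0 h and 39, 50.5 and 13 CPM at 6 h (log2 fold change 0.038, edgeR FDR 0.957) and Spry2, another feedback inhibitor, had a log2 fold change of 0.93. With 1 library left out the number called was between 5 and 10, and it was 6 without the 0 h replicate 2 library.

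In the EGF family a pair of ligands was called higher and no receptor was called. Hbegf, a ligand that is shed from the cell surface, had 152, 193 and 227 CPM at 0 h and 939.5, 969.9 and 535 CPM at 6 h (log2 fold change 2.10, SE 0.28, edgeR FDR 0.00242). Btc, another ligand, had 0.0991, 0.948 and 2.49 CPM at 0 h and 5.47, 9.34 and 13.5 CPM at 6 h (log2 fold change 2.99, edgeR FDR 0.0275), and its log2 fold change was -0.54 with the photoreceptor level as a term. The receptor gene Egfr had 93.4, 96.8 and 79 CPM at 0 h and 49.1, 74.7 and 45.1 CPM at 6 h (log2 fold change -0.67, edgeR FDR 0.0468), lower at 6 h in all 3 libraries but by less than 2-fold. Errfi1, a feedback inhibitor of the receptor, had 50.5, 63.8 and 74.1 CPM at 0 h and 162, 198 and 141 CPM at 6 h (log2 fold change 1.41, edgeR FDR 0.00265). Calls numbered 3 of 8, all higher, with a median log2 fold change of 0.79.

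Of the genes that destabilise mRNA, 4 of 9 were called higher. Zfp36 (tristetraprolin), which binds AU-rich elements of cytokine mRNAs, had 43.4, 29.8 and 61.1 CPM at 0 h and 997, 414 and 424 CPM at 6 h (log2 fold change 3.77, SE 0.45, edgeR FDR 0.00191). Btg2, an antiproliferative partner of the deadenylase complex, had 80, 68.7 and 87 CPM at 0 h and 691, 327 and 330.0 CPM at 6 h (log2 fold change 2.51, SE 0.32, edgeR FDR 0.00211). Both were highest in replicate 1. Zc3h12a (regnase-1), an endonuclease for inflammatory mRNAs, had 3.57, 2.18 and 4.28 CPM at 0 h and 14.2, 13.4 and 10.5 CPM at 6 h (log2 fold change 1.93, edgeR FDR 0.00525). By contrast Tob1 (log2 fold change 0.11, edgeR FDR 0.75) and Btg1 (log2 fold change -0.26, edgeR FDR 0.449) did not pass.

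Several cytokines rose from near 0. Of 10 cytokine genes tested, 7 were called higher and none lower, with a median log2 fold change of 2.43, or 2.11 with Il19 set at its bound. The granulocyte growth factor Csf3 had 0.0991, 0 and 0 CPM at 0 h and 8.17, 8.73 and 20.1 CPM at 6 h, from 1 read pair in all 0 h libraries together to 407 at 6 h, a ratio of 388 with a 95% counting interval of 69.3 to 15367 (edgeR FDR 0.00127). Lif, a cytokine of the IL-6 family that signals through STAT3, had 10.4, 12.5 and 14.2 CPM at 0 h and 87.4, 108 and 133 CPM at 6 h (log2 fold change 3.14, SE 0.21, edgeR FDR 0.000628). Every 6 h library was well above every 0 h library for both genes. Il6 itself was called higher at low counts, with 0.694, 0.569 and 0.199 CPM at 0 h and 4.36, 3.9 and 5.74 CPM at 6 h (log2 fold change 3.23, edgeR FDR 0.00548). Csf1, the macrophage growth factor, had 31, 24.6 and 24.2 CPM at 0 h and 92.8, 119.7 and 98 CPM at 6 h (log2 fold change 1.96, SE 0.17, edgeR FDR 0.00106).

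Il19 was not detected at 0 h and had 1.02, 1.85 and 1.37 CPM at 6 h, at least 4.82-fold higher against a floor of 3 counts per library. The IL-6 family member Clcf1 (log2 fold change 1.66, edgeR FDR 0.00589) and the myeloid growth factor Csf2 (log2 fold change 2.90, edgeR FDR 0.0185) were also called higher. Il1b was not, at 3.07, 2.56 and 0.597 CPM at 0 h and 2.6, 1.44 and 1.97 CPM at 6 h (log2 fold change -0.051, edgeR FDR 0.962). The alarmin Il33 had 29.2, 1.52 and 74.5 CPM at 0 h and 26.3, 14.3 and 37.7 CPM at 6 h (log2 fold change -0.42, edgeR FDR 0.795), and its 0 h replicate 2 library was far below the other two. In the photoreceptor order was 1 of the 7 called cytokines, Il6. Outside that order, Csf3 and Lif were also highest in replicate 3 at 6 h, whereas Csf1 and Il19 were highest in replicate 2. No cytokine was called with the photoreceptor level as a term.

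Of 6 chemokines tested 2 were called higher. Cxcl2, a ligand of the neutrophil receptor Cxcr2, had 3.17, 1.61 and 0.895 CPM at 0 h and 9.46, 21.5 and 34.5 CPM at 6 h (log2 fold change 3.52, SE 0.59, edgeR FDR 0.00563). Ccl7, a monocyte chemoattractant, had 15.6, 10 and 20.1 CPM at 0 h and 78.5, 88.5 and 30.5 CPM at 6 h (log2 fold change 2.11, SE 0.42, edgeR FDR 0.0112). The groups did not overlap in either gene. Cxcl1 had 19.3, 2.28 and 3.98 CPM at 0 h and 40.7, 22.9 and 24.6 CPM at 6 h and did not pass (log2 fold change 1.79, edgeR FDR 0.1). The interferon-induced Cxcl10 had 9.62, 8.82 and 14.8 CPM at 0 h and 29.2, 11.1 and 3.0 CPM at 6 h (log2 fold change 0.38, edgeR FDR 0.708), with its 3 libraries at 6 h on both sides of those at 0 h. Cxcl3, Ccl3 and Ccl4 were too low to be tested, and 11 of the 20 chemokines listed had no ID pair.

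Receptors and feedback genes of the STAT3 axis rose, with 8 of 12 called higher, none lower, and a median log2 fold change of 1.47. Stat3, the factor that IL-6 family receptors activate, had 130.4, 134 and 139.6 CPM at 0 h and 307, 388 and 296 CPM at 6 h (log2 fold change 1.29, SE 0.17, edgeR FDR 0.00221). Il6ra, the IL-6 receptor alpha chain, had 2.38, 2.65 and 2.39 CPM at 0 h and 7.79, 15.4 and 8.15 CPM at 6 h (log2 fold change 2.07, edgeR FDR 0.00623). Socs3, the feedback inhibitor of this axis, had 66.3, 72.6 and 106 CPM at 0 h and 648, 211 and 288 CPM at 6 h (log2 fold change 2.23, edgeR FDR 0.00942). Socs2 (log2 fold change 3.88, edgeR FDR 0.00121) and Socs1 (log2 fold change 2.87, edgeR FDR 0.00747) were higher as well, and Socs1 was also called with the photoreceptor level as a term. Neither Tnfrsf1a (log2 fold change 0.56, edgeR FDR 0.146) nor Tnfrsf12a (log2 fold change 1.23, edgeR FDR 0.0726), receptors of the TNF family, passed. The number called with 1 library left out was 6 to 8.

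Prostaglandin genes changed at several steps of the pathway. Ptgs2 (COX-2), the inducible enzyme that starts prostaglandin synthesis, had 4.46, 1.23 and 3.58 CPM at 0 h and 68.2, 136 and 49 CPM at 6 h (log2 fold change 4.77, SE 0.55, edgeR FDR 0.00189). Its constitutive relative Ptgs1 was barely detected and was not called (edgeR FDR 0.932). The prostaglandin E synthase Ptges2 had 7.44, 4.27 and 8.16 CPM at 0 h and 22.7, 15.4 and 20.3 CPM at 6 h (log2 fold change 1.56, edgeR FDR 0.00861). Ptger4, a receptor of prostaglandin E2, had 0.0991, 0.284 and 0.199 CPM at 0 h and 5.29, 4.31 and 2.32 CPM at 6 h (log2 fold change 4.27, edgeR FDR 0.00361), and the uptake transporter Slco2a1 had 10.3, 5.69 and 5.77 CPM at 0 h and 39, 77.9 and 35 CPM at 6 h (log2 fold change 2.80, SE 0.39, edgeR FDR 0.00267). These were the 4 called of 8 tested, and the number was 4 whichever library was left out. With the photoreceptor level as a term none of the 8 was called. Prostaglandin D synthase Ptgds had 535, 278 and 639 CPM at 0 h and 355, 404 and 449.6 CPM at 6 h (log2 fold change -0.26, edgeR FDR 0.539) and its groups overlapped.

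**Figure D4:**
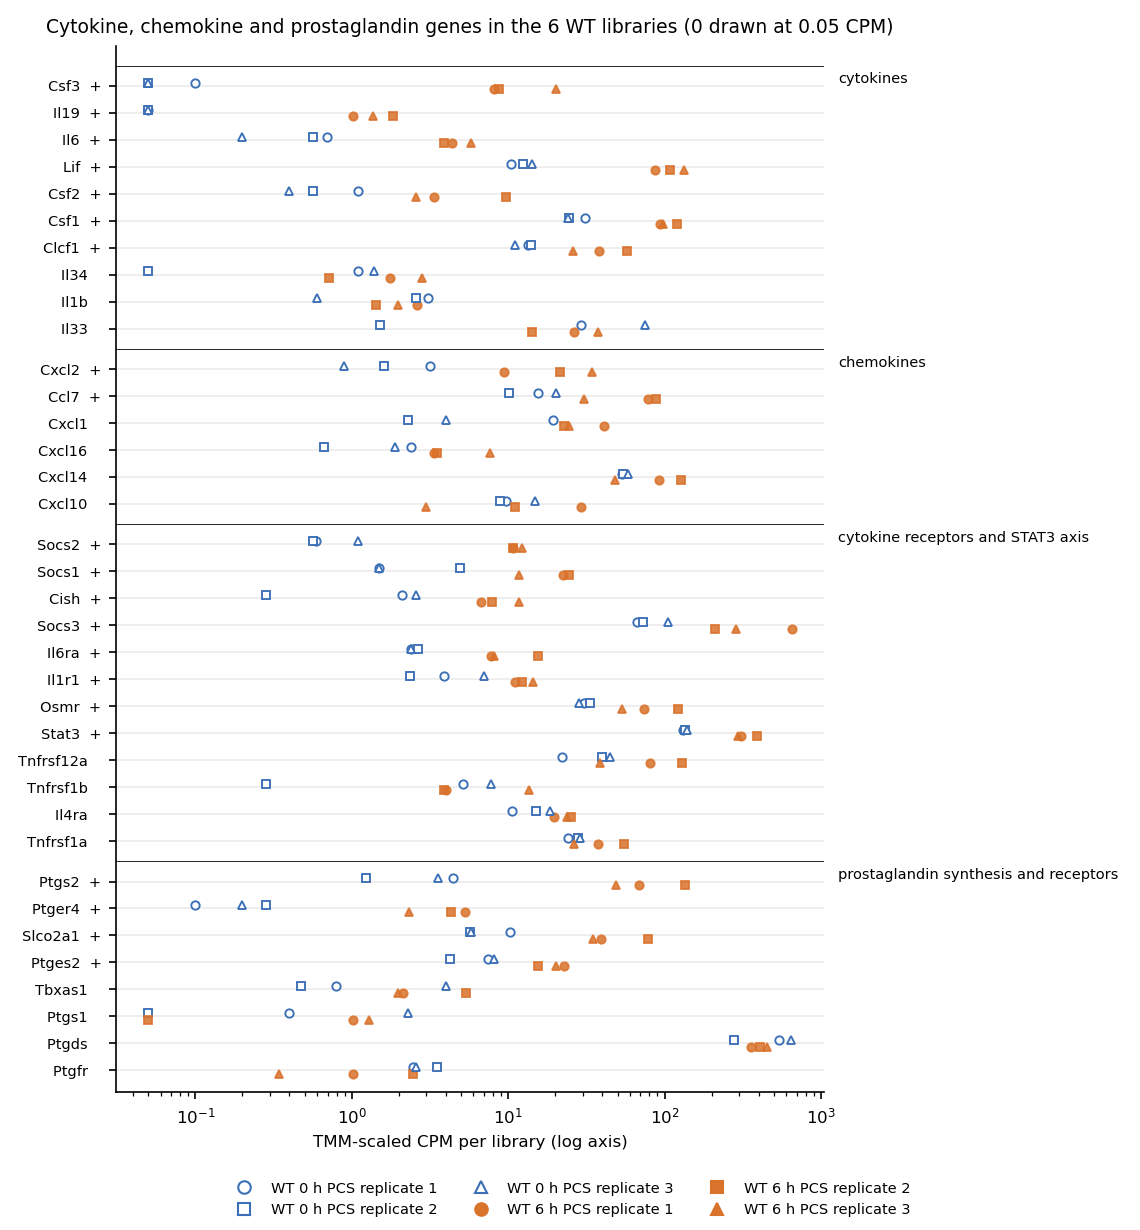
TMM-scaled CPM per WT library (log axis) for the tested cytokines, chemokines, cytokine receptors with the STAT3 axis, and prostaglandin genes. Open blue symbols are 0 h, filled orange symbols 6 h, symbol shape gives the replicate, + marks genes called higher, and a value of 0 is drawn at 0.05 CPM. Csf3, Il19, Lif and Ptgs2 separate widely by time, whereas Il1b, Il33 and Ptgds overlap.

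Of the NF-kB subunits and feedback genes, 10 of 17 were called higher and none lower (median log2 fold change 1.44). The subunits differed among themselves. Rel had 19.5, 13.3 and 14.6 CPM at 0 h and 48.8, 57.6 and 40.5 CPM at 6 h (log2 fold change 1.63, SE 0.21, edgeR FDR 0.00221) and Nfkb2 had a log2 fold change of 1.67, whereas Rela had 90.5, 111 and 94.8 CPM at 0 h and 108, 148 and 93.9 CPM at 6 h (log2 fold change 0.24, edgeR FDR 0.389). The nuclear IkB protein Nfkbiz, needed for a subset of secondary response genes, had 35.6, 18 and 15.7 CPM at 0 h and 190.2, 128 and 163 CPM at 6 h (log2 fold change 2.79, SE 0.33, edgeR FDR 0.00187). The inhibitors Nfkbia (log2 fold change 1.38, edgeR FDR 0.00298) and Tnfaip3 (log2 fold change 1.77, edgeR FDR 0.00315) and the ubiquitin ligase Birc3 (log2 fold change 1.72, edgeR FDR 0.00273) were higher as well. Icam1, an adhesion molecule for leukocytes, had 4.96, 5.12 and 8.36 CPM at 0 h and 31.5, 27.2 and 32.3 CPM at 6 h (log2 fold change 2.30, SE 0.26, edgeR FDR 0.00151). Vcam1, also an adhesion molecule, had 8.82, 3.7 and 2.79 CPM at 0 h and 10.7, 20.7 and 38 CPM at 6 h (log2 fold change 2.18, edgeR FDR 0.028), with replicate 3 the highest at 6 h and a log2 fold change of -1.43 with the photoreceptor level as a term. Without the 0 h replicate 2 library 7 members were called.

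Innate sensors did not move together. The adaptor Myd88 had 5.45, 4.08 and 2.59 CPM at 0 h and 31.2, 33.9 and 20.7 CPM at 6 h (log2 fold change 2.82, SE 0.33, edgeR FDR 0.00167) and the soluble pattern recognition protein Ptx3 had 2.08, 2.37 and 2.19 CPM at 0 h and 36.3, 61.5 and 87.6 CPM at 6 h (log2 fold change 4.80, SE 0.36, edgeR FDR 0.000687). The receptor Tlr4, which senses lipopolysaccharide, had 11, 13.6 and 19.7 CPM at 0 h and 3.53, 5.75 and 2.57 CPM at 6 h (log2 fold change -1.90, SE 0.37, edgeR FDR 0.00935), and the sensor Nod1 had 26.6, 23.8 and 17.3 CPM at 0 h and 13.5, 11.5 and 7.29 CPM at 6 h (log2 fold change -1.07, edgeR FDR 0.0269). These were 2 called higher and 2 called lower of 7 tested. The acute phase gene Lcn2 (log2 fold change 2.07, edgeR FDR 0.149) and complement C3 (log2 fold change -0.29, edgeR FDR 0.86) did not pass.

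Of the interferon response genes 7 of 18 were called higher and none lower, with a median log2 fold change of 1.25. Gbp2, a guanylate binding protein, had 4.66, 5.78 and 5.47 CPM at 0 h and 36.7, 77.3 and 39.4 CPM at 6 h (log2 fold change 3.26, SE 0.33, edgeR FDR 0.00127). The complex that transduces interferon signals was represented by Irf9, with 10.5, 6.73 and 6.37 CPM at 0 h and 30.8, 25.2 and 28.2 CPM at 6 h (log2 fold change 1.83, SE 0.25, edgeR FDR 0.00242), and by Stat2, with 14.1, 14.3 and 6.76 CPM at 0 h and 44.9, 36.6 and 34.6 CPM at 6 h (log2 fold change 1.72, edgeR FDR 0.00528). The class I antigen presentation gene H2-D1 had 27, 15.9 and 16.6 CPM at 0 h and 70.1, 64 and 62.6 CPM at 6 h (log2 fold change 1.72, edgeR FDR 0.00218), while its partner chain B2m had 15, 4.36 and 14.8 CPM at 0 h and 10.9, 7.19 and 11.7 CPM at 6 h (log2 fold change -0.19, edgeR FDR 0.777). The groups were apart for Gbp2, Irf9, Stat2 and H2-D1 and overlapped for B2m. H2-D1 has close relatives in the genome, and pairs shared with them are dropped by the counting, so its values may be too low. Ifit1 (log2 fold change 0.73, edgeR FDR 0.164) and Ifit3 (log2 fold change 1.17, edgeR FDR 0.0873), classical targets, were not called. Leaving out the 0 h replicate 2 library left 4 calls.

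Of the proteases of the wound matrix and their inhibitors, 6 of 15 tested were called higher, 1 lower and 8 not called, with a median log2 fold change of 0.35. Plaur, the receptor of urokinase, had 1.19, 0.284 and 1.29 CPM at 0 h and 16.7, 17.8 and 18 CPM at 6 h (log2 fold change 4.23, SE 0.46, edgeR FDR 0.00137). Adamts1, a metalloprotease that cleaves versican, had 109, 133 and 169.6 CPM at 0 h and 796, 919 and 565 CPM at 6 h (log2 fold change 2.47, SE 0.26, edgeR FDR 0.00136), and Adamts4 had 137, 155 and 111 CPM at 0 h and 473, 434 and 315 CPM at 6 h (log2 fold change 1.60, SE 0.22, edgeR FDR 0.00242). For all of these the groups were apart. The inhibitors Timp2 (log2 fold change -0.57, edgeR FDR 0.114) and Timp3 (log2 fold change 0.35, edgeR FDR 0.267) were not called. None of the 6 was in the photoreceptor order, and Adamts4 was also called with the photoreceptor level as a term.

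Integrin and syndecan genes are described singly, and the counts of their lists are not read as results. Itga5, the fibronectin receptor subunit, had 27.4, 29.5 and 23.1 CPM at 0 h and 98.9, 136 and 87.4 CPM at 6 h (log2 fold change 2.01, SE 0.20, edgeR FDR 0.00127), the 1 call among 7 integrins. Its partner Itgb1 had 321, 353 and 303 CPM at 0 h and 234, 327 and 138 CPM at 6 h (log2 fold change -0.48, edgeR FDR 0.245). The groups were apart for Itga5 and overlapped for Itgb1. In the hyaluronan and syndecan list 1 of 6 was called higher and 1 lower, the proteoglycans Sdc4 and Sdc1, Sdc4 with 449.8, 434 and 426 CPM at 0 h and 1056, 1093 and 744 CPM at 6 h (log2 fold change 1.14, edgeR FDR 0.00797) and Sdc1 with 80.4, 72.8 and 58.4 CPM at 0 h and 36.7, 45.2 and 16.3 CPM at 6 h (log2 fold change -1.11, edgeR FDR 0.0461). The hyaluronan receptor Cd44 had 581, 637 and 532 CPM at 0 h and 343, 543 and 206 CPM at 6 h (log2 fold change -0.68, edgeR FDR 0.152).

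Fibrosis genes had calls in both directions at 6 h PCS. Of 14 matrix and myofibroblast genes, 2 were called higher and 1 lower, with a median log2 fold change of -0.43. Of all tested genes with a symbol 24% were called higher and 4.98% lower, so these small counts are not read as a result about the list. Acta2 (smooth muscle actin), the usual myofibroblast marker, was lower, with 218, 282 and 328 CPM at 0 h and 53.3, 99.5 and 34.5 CPM at 6 h (log2 fold change -2.15, SE 0.38, edgeR FDR 0.00662). Tagln, another smooth muscle protein, had 3.77, 0.474 and 2.59 CPM at 0 h and 4.27, 17.9 and 38.7 CPM at 6 h (log2 fold change 3.15, edgeR FDR 0.0361), and the crosslinking enzyme Lox had 1.19, 0.758 and 2.59 CPM at 0 h and 1.67, 19.3 and 9.6 CPM at 6 h (log2 fold change 2.74, edgeR FDR 0.0489). Both had wide spreads at 6 h. The list held 0 higher calls without replicate 2 or replicate 3 of either time, each library left out in turn. Fibronectin, Fn1, had 69, 17.3 and 16.9 CPM at 0 h and 31.1, 28.3 and 48 CPM at 6 h (log2 fold change 0.06, edgeR FDR 0.947). Tgfbi, a matrix protein induced by TGF-beta, had 65, 2.84 and 5.07 CPM at 0 h and 36.9, 45.2 and 28.1 CPM at 6 h (log2 fold change 0.60, edgeR FDR 0.713). Of 6 factors and cadherins of epithelial to mesenchymal transition 1 was called, the homeobox gene Prrx1, which was lower, at 41.4, 50.9 and 33.3 CPM at 0 h and 15.7, 14.4 and 5.57 CPM at 6 h (log2 fold change -1.82, edgeR FDR 0.011).

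Of 15 TGF-beta and activin genes 3 were called higher and 2 lower, with a median log2 fold change of 0.067. The share called higher was near that of all genes with a symbol. The activin subunit Inhba had 193, 208 and 177 CPM at 0 h and 783, 809 and 252 CPM at 6 h (log2 fold change 1.67, edgeR FDR 0.0207). Thbs1 (thrombospondin-1), which can release latent TGF-beta, had 32, 13.6 and 51.5 CPM at 0 h and 227, 354 and 175 CPM at 6 h (log2 fold change 2.96, SE 0.49, edgeR FDR 0.00538). Tgif1, a corepressor of Smad proteins, had 45.5, 52 and 53.1 CPM at 0 h and 165, 149.6 and 78.3 CPM at 6 h (log2 fold change 1.38, edgeR FDR 0.00855). Within each of these 3 genes the groups did not overlap. The ligand Tgfb3 was lower, with 21.7, 27.9 and 36 CPM at 0 h and 10.7, 8.42 and 9.78 CPM at 6 h (log2 fold change -1.57, SE 0.24, edgeR FDR 0.00353), and so was the integrin Itgb8, which activates TGF-beta (log2 fold change -1.29, edgeR FDR 0.0174). Tgfb2, the major ligand of the eye, had 514, 593 and 539 CPM at 0 h and 654, 1079 and 566 CPM at 6 h (log2 fold change 0.48, edgeR FDR 0.211). In the BMP list 1 of 11 was called, the inhibitor Smad6, lower at 33.6, 46.9 and 37.7 CPM at 0 h and 11.4, 8.42 and 3.94 CPM at 6 h (log2 fold change -2.32, SE 0.36, edgeR FDR 0.00377).

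Cytoskeletal targets of YAP and SRF also varied. Ccn1, a matricellular early response gene, had 101, 85.1 and 86 CPM at 0 h and 635, 893 and 643 CPM at 6 h (log2 fold change 3.00, SE 0.22, edgeR FDR 0.000687) and was also called with the photoreceptor level as a term. Vcl, the focal adhesion protein vinculin, had 144, 105 and 135 CPM at 0 h and 265, 341 and 313 CPM at 6 h (log2 fold change 1.26, edgeR FDR 0.00312). The LIM protein Ajuba was lower, with 51.1, 60.1 and 62.7 CPM at 0 h and 21.3, 23 and 12.4 CPM at 6 h (log2 fold change -1.62, edgeR FDR 0.00318). These were the 3 calls among 14 members, whose median log2 fold change was 0.012. Ccn2, a relative of Ccn1, had 200.1, 208 and 249 CPM at 0 h and 169, 436 and 318 CPM at 6 h (log2 fold change 0.49, edgeR FDR 0.274).

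Of 8 heat shock chaperones 3 were called higher and 5 were not called, with a median log2 fold change of 0.56. Dnajb1, an HSP40 cochaperone, had 40.2, 55.3 and 49.1 CPM at 0 h and 354, 274 and 179.8 CPM at 6 h (log2 fold change 2.48, SE 0.27, edgeR FDR 0.00137), and inducible HSP70 (Hspa1a) had 18.2, 13.2 and 13.5 CPM at 0 h and 52.6, 27.6 and 41.3 CPM at 6 h (log2 fold change 1.44, edgeR FDR 0.00721). Hspa1b is nearly identical in sequence to Hspa1a, and pairs shared between them are dropped by the counting, so the values of both may be too low. Hspa1b had 39, 30.8 and 32.7 CPM at 0 h and 45.1, 45.3 and 41.2 CPM at 6 h (log2 fold change 0.36, edgeR FDR 0.113). Replicate 1 was the highest 6 h library for Dnajb1 and Hspa1a. The cochaperone Bag3 had 84, 104.4 and 107 CPM at 0 h and 239, 334 and 143 CPM at 6 h (log2 fold change 1.27, edgeR FDR 0.0164). Of 10 genes of the unfolded protein and integrated stress responses 4 were called higher, and the number was 4 whichever library was left out. Among them were the transcription factor Atf4, with 95.7, 111 and 111 CPM at 0 h and 254, 297 and 220.4 CPM at 6 h (log2 fold change 1.28, SE 0.17, edgeR FDR 0.00231), the ER chaperone Hspa5 (BiP), with 299, 269.9 and 331 CPM at 0 h and 678, 717 and 582 CPM at 6 h (log2 fold change 1.13, edgeR FDR 0.00459), and the phosphatase subunit Ppp1r15a, which reverses eIF2 alpha phosphorylation (log2 fold change 1.49, edgeR FDR 0.00861). The serine synthesis genes Phgdh (log2 fold change -0.76, edgeR FDR 0.126) and Psat1 (log2 fold change -0.91, edgeR FDR 0.0617), usually regarded as Atf4 targets, were not called.

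Metal and redox genes included some of the wider changes. The metallothioneins Mt1 and Mt2, which bind zinc and copper, had log2 fold changes of 2.53 and 3.11 (edgeR FDR 0.00211 and 0.00151). Mt2 had 34.2, 29.1 and 32.3 CPM at 0 h and 254, 415 and 157 CPM at 6 h. Srxn1 (sulfiredoxin), an NRF2 target that repairs peroxiredoxins, had 37.4, 45 and 55.4 CPM at 0 h and 677, 1007.3 and 367 CPM at 6 h (log2 fold change 3.90, SE 0.39, edgeR FDR 0.00127). The groups were far apart in both. Gclc, the catalytic subunit of glutathione synthesis and also an NRF2 target, was lower, with 113, 116 and 96.2 CPM at 0 h and 55.6, 60.9 and 40.9 CPM at 6 h (log2 fold change -1.05, SE 0.18, edgeR FDR 0.00554). Slc7a11, the cystine transporter, had 254, 182 and 268 CPM at 0 h and 209, 190.1 and 123 CPM at 6 h (log2 fold change -0.43, edgeR FDR 0.213). Calls numbered 5 higher and 1 lower of 9.

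Growth arrest genes were mostly higher, 6 of 9 with 1 lower and a median log2 fold change of 2.19. The stress sensors Gadd45b and Gadd45g had 23.5, 27.1 and 25.1 CPM at 0 h and 151, 114 and 107 CPM at 6 h (log2 fold change 2.30, SE 0.18, edgeR FDR 0.000791) and 36.9, 23.4 and 38.3 CPM at 0 h and 174, 148 and 128 CPM at 6 h (log2 fold change 2.19, SE 0.22, edgeR FDR 0.00127), respectively. Gadd45a had a log2 fold change of 1.58. The cell cycle inhibitor Cdkn1a (p21) had 3.27, 2.84 and 9.65 CPM at 0 h and 31.7, 34.1 and 32.9 CPM at 6 h (log2 fold change 2.65, edgeR FDR 0.00528), and the kinase Plk2 had 23.4, 36 and 30.7 CPM at 0 h and 304, 502 and 159 CPM at 6 h (log2 fold change 3.42, SE 0.42, edgeR FDR 0.00218). Mdm2, the p53 ubiquitin ligase, had 56.9, 52.1 and 60.2 CPM at 0 h and 82.5, 102 and 74.5 CPM at 6 h, higher in all 3 libraries at 6 h but by less than 2-fold (log2 fold change 0.61, edgeR FDR 0.0254). Of 6 cell cycle genes tested 1 was called, the replication helicase subunit Mcm4, with 17.8, 20.6 and 11.9 CPM at 0 h and 71.4, 108 and 34 CPM at 6 h (log2 fold change 2.08, edgeR FDR 0.0107). Ccnd2, a G1 cyclin, had 416, 472 and 433 CPM at 0 h and 267, 292 and 109 CPM at 6 h (log2 fold change -0.99, edgeR FDR 0.0627).

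In the hypoxia and glycolysis list 5 of 14 were called higher and 1 lower, and 3 of those 5 were in the photoreceptor order. Hexokinase Hk2, the inducible form, had 206, 212 and 238 CPM at 0 h and 1190.3, 1144 and 847 CPM at 6 h (log2 fold change 2.28, SE 0.22, edgeR FDR 0.00119) and was called with the photoreceptor level as a term. The peptide hormone Adm (adrenomedullin) had 2.58, 3.79 and 3.58 CPM at 0 h and 50.8, 50.2 and 53 CPM at 6 h (log2 fold change 3.95, SE 0.21, edgeR FDR 0.00055). Neither gene's groups overlapped, and the 3 values of Adm at 6 h were nearly equal. Ndrg1, also a hypoxia target, was lower, with 289, 323 and 414 CPM at 0 h and 137, 144 and 150.3 CPM at 6 h (log2 fold change -1.25, SE 0.18, edgeR FDR 0.00295). Hexokinase Hk1 had 88.7, 82.2 and 109 CPM at 0 h and 322, 256 and 483 CPM at 6 h (log2 fold change 1.93, edgeR FDR 0.00235), in the order of the photoreceptor markers, and a log2 fold change of 0.22 with that level as a term. Hif1a (log2 fold change -0.49, edgeR FDR 0.109), Slc2a1 (log2 fold change 0.51, edgeR FDR 0.141) and Eno1 (log2 fold change 0.058, edgeR FDR 0.847) were not called.

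Several other lists had at most 1 call, and these counts are not read as results about the lists. In the ribosome biogenesis list 1 of 7 was called (Nop58, log2 fold change 1.04). Cholesterol genes had 1 call of 7, the transport protein Stard4 (log2 fold change -1.15, edgeR FDR 0.012). Among 12 clock genes 1 was called, Ciart, which represses the clock and had 20.3, 22.9 and 37.6 CPM at 0 h and 9.0, 10.4 and 11.9 CPM at 6 h (log2 fold change -1.37, edgeR FDR 0.00993), while Per1 had 239, 205 and 300.3 CPM at 0 h and 286, 276 and 297 CPM at 6 h (log2 fold change 0.21, edgeR FDR 0.432) and Nr1d1 252, 358 and 352 CPM at 0 h and 215, 269.7 and 256 CPM at 6 h (log2 fold change -0.38, edgeR FDR 0.184). None of 7 genes of the mitochondrial genome was called, although in all 7 the libraries at 6 h were above those at 0 h, as for mt-Co1 with 1969, 1283 and 1962 CPM at 0 h and 3113, 2606 and 4791 CPM at 6 h (log2 fold change 1.01, edgeR FDR 0.0514). Of all genes tested, 49.3% had groups that did not overlap. At 6 h 5 of the 7, mt-Co1 among them, were in the order of the photoreceptor markers, compared with 22.9% of all genes not called.

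Lens identity genes fell. Of 8 lens transcription factors tested, 6 were called lower and none higher, with a median log2 fold change of -1.61. Pax6, the master regulator of eye development, had 585, 676 and 553 CPM at 0 h and 332, 294 and 256 CPM at 6 h (log2 fold change -1.04, SE 0.19, edgeR FDR 0.00686). Prox1, which drives fiber differentiation, had 1009, 1140.2 and 966 CPM at 0 h and 460.0, 394 and 240.4 CPM at 6 h (log2 fold change -1.51, SE 0.27, edgeR FDR 0.0063). Sox2 had 105, 112 and 92.6 CPM at 0 h and 29.7, 40.9 and 24.1 CPM at 6 h (log2 fold change -1.71, SE 0.21, edgeR FDR 0.00189) and its relative Sox1 had 103, 133 and 91.9 CPM at 0 h and 32.1, 33.1 and 12.9 CPM at 6 h (log2 fold change -2.07, SE 0.35, edgeR FDR 0.00574). The 3 libraries at 6 h were below all 3 at 0 h in each of these genes, and replicate 3 was the lowest.

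Pitx3, mutated in inherited cataract, had 85.7, 113 and 92 CPM at 0 h and 32.6, 37.1 and 14.1 CPM at 6 h (log2 fold change -1.80, SE 0.33, edgeR FDR 0.00796), and Gata3, a factor needed for fiber differentiation, had 14.7, 16.1 and 11 CPM at 0 h and 4.55, 3.59 and 2.06 CPM at 6 h (log2 fold change -2.04, edgeR FDR 0.00542). Foxe3, which keeps the epithelium proliferative, had 195, 192 and 166 CPM at 0 h and 166, 169 and 80.5 CPM at 6 h and did not pass (log2 fold change -0.41, edgeR FDR 0.291). Meis1, a regulator of Pax6, had 27.7, 24 and 28.8 CPM at 0 h and 35.3, 34.7 and 62.2 CPM at 6 h (log2 fold change 0.72, edgeR FDR 0.0635). Without the 6 h replicate 3 library 5 of these factors were called lower, and likewise 5 without the 0 h replicate 2 library, Pax6 being under 2-fold each time. With the photoreceptor level as a term none of the 8 was called and their median log2 fold change was 0.22. Values from that fit are extrapolations, and whether the fall lies within LECs was not tested. Of the other lens epithelium markers the gap junction gene Gja1 (log2 fold change 0.19, edgeR FDR 0.604), the water channel Aqp1 (log2 fold change -0.30, edgeR FDR 0.399) and Pdpn (log2 fold change 0.18, edgeR FDR 0.614) were not called.

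The fiber cell products Crygb and Lgsn fell. Crygb, a gamma crystallin, had 105, 104.3 and 142 CPM at 0 h and 8.26, 0.411 and 10.7 CPM at 6 h (log2 fold change -4.16, SE 0.81, edgeR FDR 0.014). It was not called without the 6 h replicate 1 or replicate 3 library (edgeR FDR 0.052 and 0.069). Gamma crystallin genes resemble each other closely, and Crygb was the 1 crystallin both named and tested, so no statement on the family is made. Lgsn (lengsin), a lens protein related to glutamine synthetase, had 165, 228 and 349 CPM at 0 h and 24.6, 16.3 and 19.6 CPM at 6 h (log2 fold change -3.61, SE 0.31, edgeR FDR 0.00104). All 3 libraries at 6 h were far below those at 0 h. The RNA granule protein Caprin2 had 69.8, 73.1 and 59.3 CPM at 0 h and 40.2, 46.6 and 28 CPM at 6 h (log2 fold change -0.82, edgeR FDR 0.0223). Lgsn was the 1 call among the 4 tested of the fiber gene list, which does not hold the crystallins.

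Part of the FGF, Wnt and Notch list was lower, with 3 calls lower and 1 higher of 14. With 1 library left out, 1 to 4 were called lower and 0 to 1 higher. Etv5, a readout of FGF signalling, had 90.6, 121 and 116 CPM at 0 h and 41.2, 38.3 and 27.8 CPM at 6 h (log2 fold change -1.61, SE 0.20, edgeR FDR 0.00189). The ligands Wnt7a and Wnt5a had 77.8, 96.2 and 75.4 CPM at 0 h and 38, 53.7 and 20.2 CPM at 6 h (log2 fold change -1.16, edgeR FDR 0.0315) and 33.9, 30.6 and 28.9 CPM at 0 h and 18.6, 15.3 and 10.3 CPM at 6 h (log2 fold change -1.08, edgeR FDR 0.0137), respectively. Fgf2 was called higher, with 1.78, 0.474 and 4.48 CPM at 0 h and 17.5, 6.36 and 20.6 CPM at 6 h (log2 fold change 2.72, edgeR FDR 0.0313), and had a log2 fold change of -0.38 with the photoreceptor level as a term. The receptors Fgfr1 (log2 fold change 0.18, edgeR FDR 0.469) and Fgfr2 (log2 fold change -0.23, edgeR FDR 0.595) were not called. The secreted Wnt pathway protein Dkk3 had 3088, 2988 and 3465 CPM at 0 h and 2084, 2280.3 and 1349.9 CPM at 6 h (log2 fold change -0.74, edgeR FDR 0.0821).

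Zonule and microfibril genes turned on 1 library. Fbn1 (fibrillin-1), the main protein of the fibers that hold the lens, had 374, 12.8 and 559 CPM at 0 h and 145, 37.8 and 129 CPM at 6 h (log2 fold change -1.60, edgeR FDR 0.342). Fbln1 had 385, 14.1 and 498 CPM at 0 h and 173, 67.4 and 180.2 CPM at 6 h (log2 fold change -1.09, edgeR FDR 0.483) and the proteoglycan Vcan had 157, 8.25 and 271 CPM at 0 h and 91.6, 30.9 and 92 CPM at 6 h (log2 fold change -1.02, edgeR FDR 0.504). In each the 0 h replicate 2 library was below every other library while the other 0 h libraries were the highest. Of 14 genes 1 was called lower with all libraries, the metalloprotease Adamts17 (log2 fold change -1.16, edgeR FDR 0.0364). Without the 0 h replicate 2 library 6 were called lower. The pigment cell markers, summed, were also lowest in that library, at 19.2 CPM, and the macrophage markers, at 2.75 CPM. Their part in the result was not tested.

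Among the named genes with the highest log2 fold changes were Htr1d, Iqcn, Fosb, Esm1, Emp1, Fgl2, Pde6h, Ptx3, Ptgs2, Arc and Syt13. Htr1d, a serotonin receptor, had 1.69, 0.190 and 1.09 CPM at 0 h and 97.8, 151 and 49.4 CPM at 6 h (log2 fold change 6.64, SE 0.65, edgeR FDR 0.00127). Emp1, a small membrane protein of epithelia, had 19.6, 6.64 and 9.65 CPM at 0 h and 507, 686 and 231 CPM at 6 h (log2 fold change 5.31, SE 0.57, edgeR FDR 0.00153). In both of these the 6 h libraries were many times the 0 h libraries, with replicate 2 the highest. Arc, an activity-regulated early gene, had 21.2, 19.1 and 12.7 CPM at 0 h and 499, 402 and 307 CPM at 6 h (log2 fold change 4.51, SE 0.28, edgeR FDR 0.000628) and was called with the photoreceptor level as a term. Esm1 (endocan), a secreted proteoglycan, had 0.297, 0.569 and 0.199 CPM at 0 h and 16.7, 29.4 and 8.92 CPM at 6 h (log2 fold change 5.63, edgeR FDR 0.00136), and Fgl2, a prothrombinase of the fibrinogen family, had 1.29, 0 and 1.29 CPM at 0 h and 32.9, 45.1 and 14 CPM at 6 h (log2 fold change 5.15, edgeR FDR 0.00465). Pde6h, the cone phosphodiesterase subunit, had 0.793, 0.379 and 0.497 CPM at 0 h and 11.4, 12.4 and 27.7 CPM at 6 h (log2 fold change 4.92, edgeR FDR 0.00127) and the synaptotagmin Syt13 had 0.496, 0.664 and 1.29 CPM at 0 h and 12.7, 12.4 and 31.1 CPM at 6 h (log2 fold change 4.5, edgeR FDR 0.00183), both highest in replicate 3. The IQ motif gene Iqcn had 0.793, 0.190 and 0.895 CPM at 0 h and 96.9, 32.1 and 28 CPM at 6 h (log2 fold change 6.37, edgeR FDR 0.00175).

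Of the 12 with the lowest log2 fold changes Crygb and Lgsn are given above. Anxa3, a membrane-binding annexin, had 34.8, 41.1 and 35.1 CPM at 0 h and 3.71, 6.67 and 2.92 CPM at 6 h (log2 fold change -3.07, SE 0.31, edgeR FDR 0.00127) and was 1 of the 2 genes called lower with the photoreceptor level as a term. Mycn, a Myc family factor, had 55.8, 59.9 and 48.2 CPM at 0 h and 12.7, 6.98 and 5.4 CPM at 6 h (log2 fold change -2.71, SE 0.31, edgeR FDR 0.00158). Timeless, a replication fork protein, had 82, 78.9 and 56.7 CPM at 0 h and 12.7, 13 and 11.5 CPM at 6 h (log2 fold change -2.55, SE 0.19, edgeR FDR 0.000687). The groups were apart for all 3 genes. Lctl, a klotho family protein of the lens, had 148, 234 and 168 CPM at 0 h and 35.2, 47.7 and 16.7 CPM at 6 h (log2 fold change -2.47, SE 0.37, edgeR FDR 0.00406). The others were Smco3 (log2 fold change -3.37, edgeR FDR 0.00485), the Myc target Cdca7 (log2 fold change -2.98, edgeR FDR 0.00508), Pakap (log2 fold change -2.42, edgeR FDR 0.0107), the sarcomere protein Mypn (log2 fold change -2.42, edgeR FDR 0.0024), the orphan receptor Gpr160 (log2 fold change -2.39, edgeR FDR 0.0113) and the chromatin factor Prdm16 (log2 fold change -2.39, edgeR FDR 0.00235).

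Ahnak, Egr1, Gnb1, Sag, Map1b and Jund were named for having the most reads of the called genes at 6 h, a number that also depends on gene length. Ahnak, a giant scaffold protein, had 2519, 2623 and 2298 CPM at 0 h and 5408, 7562 and 3174 CPM at 6 h (log2 fold change 1.12, edgeR FDR 0.0484). Gnb1, the G protein beta subunit that rods also use, had 374, 293 and 422 CPM at 0 h and 1479, 1018 and 2016 CPM at 6 h (log2 fold change 2.05, edgeR FDR 0.00299) and Map1b, a neuronal microtubule protein, had 594, 569 and 668 CPM at 0 h and 1251, 1294 and 1708 CPM at 6 h (log2 fold change 1.21, edgeR FDR 0.00687). Both were highest in replicate 3. Among genes called lower, those with the most reads at 0 h were the channel Trpm3, with 1949, 1858 and 1564 CPM at 0 h and 1014, 933 and 499.6 CPM at 6 h (log2 fold change -1.13, edgeR FDR 0.0276), and they included Prox1, Erich5, Nudt4 and H1f2. The replicate 3 library at 6 h was the lowest for Trpm3.

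The share of read pairs that HTSeq assigned to no counted feature, which can hold intronic or antisense pairs, was 19.8%, 18.5% and 15.2% at 0 h and 25.3%, 23.6% and 27.4% at 6 h. The means were 17.8% ± 2.37 and 25.4% ± 1.87 (SD, n = 3), a difference of 7.64 percentage points with no overlap (exact two-sided permutation p = 0.1, the smallest that 3 against 3 libraries allow).

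The same injury in the libraries labelled Egr1KO and FosBcKO, none of which entered the WT comparison, gave values for the same genes. Reads of the targeted genes were not lost in either line. Egr1 in Egr1KO had 280, 102 and 173 CPM at 0 h and 4735, 1995 and 3657 CPM at 6 h, and Fosb in FosBcKO had 4.5, 8.1 and 18.9 CPM at 0 h and 1660, 1543 and 1751 CPM at 6 h. Reads summed over a whole gene can come from the parts of it that the allele retains, so these counts do not check the genotype labels. In Egr1KO 1353 of 14586 genes tested were called higher (9.28%) and 393 lower (2.69%). In FosBcKO 1733 of 15475 were called higher (11.2%) and 294 lower (1.9%).

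Of the WT DEGs 1068 were called again in the same direction in Egr1KO. The 893 higher ones were 42.9% of the higher WT calls and 66.0% of the higher Egr1KO calls, and the 175 lower ones were 31.1% and 44.5%. In FosBcKO 1206 were called again, of which 1066 were higher (51.2% and 61.5%) and 140 lower (24.9% and 47.6%). Irrespective of a call, 2310 of 2344 WT DEGs tested in Egr1KO and 2414 of 2464 tested in FosBcKO changed in the same direction, and none was called in the opposite direction. The like share over all genes tested is not given here. Photoreceptor RNA also rose at 6 h in both lines, so a repeated change need not lie within LECs. Called the same way in all 3 genotypes were 743 genes, 650 higher and 93 lower. A test of the difference in response between each line and WT called 0 of 17469 genes (edgeR quasi-likelihood F-test), with 1141 genes for Egr1KO and 1171 for FosBcKO at an unadjusted p under 0.05. The count for Egr1KO depended on single libraries, being 393 without its 0 h replicate 3 library and 1605 without its 6 h replicate 1 library, and that for FosBcKO was 564 without its 0 h replicate 3 library.

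Values in both lines follow for some of the genes described above, a selection that does not stand for all of them. Over all WT DEGs, 40.4% were called again in Egr1KO and 45.6% in FosBcKO. Fosb had log2 fold changes of 7.91 in Egr1KO and 7.30 in FosBcKO, and Egr1 4.23 and 3.06. Arc had 4.58 and 4.90, Nr4a1 2.82 and 2.40, Emp1 6.60 and 5.59, and Ptgs2 3.52 and 6.35. All of these were called higher in both lines. Ptx3 had 8.64 and 6.73 and was called in both as well. Lgsn had -3.61 and -3.0 and Crygb -5.25 and -3.19, each called lower in Egr1KO and not in FosBcKO. Pax6 had -0.41 and -0.25 and Prox1 -1.13 and -0.97, none of which passed both the FDR and the fold threshold. The photoreceptor gene Sag had 2.61 and 2.13 and was called higher in both. Syt13 had 2.29 and 1.69 and was not called in Egr1KO. Pde6h had 2.74 and 1.94 and Timeless -1.29 and -1.04, and neither was called in FosBcKO.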

How the data were processed

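LEC libraries were stranded, ribodepleted and paired end. Per the study's methods the authors aligned read pairs with Hisat2 and assigned them to Ensembl genes by HTSeq-count (union mode), and the deposited values are raw counts per gene, with no normalization. The methods name GRCm38 and the submitters' processing notes GRCm39, so no coordinates are given. HTSeq's summary lines entered neither library sizes nor tests: pairs assigned to no feature made up 15.2% to 27.4% of read pairs in the 6 WT libraries, and ambiguous pairs 1.10% to 1.27%. Pairs shared by near-identical or overlapping genes are dropped by this counting, and the strand setting is not given in the sources used here. PCR copies are counted separately, so counting intervals and floors cover counting error only.

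The deposited tables list Ensembl IDs alone, none of which (0 of 55416) was found in the RefSeq table. Symbols came from ID and symbol pairs printed in the study's supplementary tables, which cover 7030 IDs, and no value was taken from them. Symbols were available for 71.7% of genes called higher, 54.9% of those called lower and 34.4% of those not called, so counts of named members lean towards called genes. Of 650 entries in 35 gene lists 379 had an ID, and of 95 entries in 13 marker lists 47.

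Tests used edgeR 4.0.16 in R 4.3.3 (filterByExpr, TMM, robust quasi-likelihood F-test) on the 6 libraries of a contrast, with groups taken from the sample labels. Alternatives were the exact test, DESeq2 1.42.0, other scalings and filters, a fit of all 18 libraries, a replicate block, thinning to the smallest library, other fold minimums and leaving out each library. The photoreceptor term was added after seeing the data. The members and lists were chosen with earlier results of these data known. Named genes were the 12 highest and 12 lowest called genes with an average log2 CPM of at least 3 and no overlap of groups, the 6 called with the highest CPM at 6 h and the 6 called lower with the highest at 0 h, up to 4 called and 3 uncalled members of each list, all marker genes tested, and Egr1 and Fosb. A further 24 list members, among them Fos, Jun, Myc, Il19, Socs3 and Vcam1, were chosen after their values were seen. Some genes that these rules select are not reported here.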

Additional observations from a re-analysis of the deposited data

How the results depend on the processing

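The WT comparison of all 6 libraries gave 2645 DEGs, and 1889 to 2740 with 1 library left out, with 72.6% to 82.7% of calls higher and a median log2 fold change of -0.0296 to -0.0009. The exact test called 3130 and DESeq2 3090 genes. With no filter the median over all genes was 0.159. With no fold minimum 4048 genes were called, 62.9% of them higher, and with a minimum of 4-fold 1371, 92.9% of them higher. The photoreceptor term left 75 calls over all 18 libraries, 97.3% higher, and 64 within WT, 56.3% higher. WT calls seen again numbered 393 to 1605 in Egr1KO and 564 to 1531 in FosBcKO with 1 library left out, against 2310 and 2414 with no call required. In Egr1KO the count was 529 without 0 h replicate 1, 655 without 0 h replicate 2 and 566 without 6 h replicate 3, and in FosBcKO 593 without 6 h replicate 1. The rise in read pairs assigned to no feature was 6.33 to 8.63 percentage points with 1 library left out.

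The replicate block called 2955 genes in WT, 75.1% higher, with 1078 of its calls repeated in Egr1KO and 1559 in FosBcKO. Residuals of libraries sharing a number correlated at 0.0925, 0.279 and 0.288, each library best with its own number, and the labels do not tie a number to the same mice.

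Over the 162 named genes called, 30 lost the call without at least 1 library, 20 of them without 3 or more in turn, among them Ahnak, Trpm3, Erich5, Nudt4, Wnt7a, Sdc1, Lox, Tagln, Btc, Fgf2, Nod1 and Adamts17. Outside the photoreceptor term no alternative turned the direction of a named gene. With the photoreceptor term the log2 fold change of 13 called genes turned: Prox1 to 0.091, Erich5 to 0.34, Nod1 to 0.26, Btc to -0.54, Fgf2 to -0.38, Gata3 to 0.83, Sdc1 to 0.29, Gclc to 0.080, Nrl (itself part of that term) to -0.18, Mbp to -0.86, Pax6 to 0.13, Pitx3 to 0.49 and Vcam1 to -1.43. The cause was not tested. The study's minimum in FPKM was not run, since gene lengths were not used here. Depth limits what can be said of genes near the floor of 3 counts.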

Other observations

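Markers of the ocular surface varied between libraries of the same group, and none of the 3 tested was called. The corneal keratin gene Krt12 had 12.4, 3.7 and 5.57 CPM at 0 h and 59.8, 133 and 1.29 CPM at 6 h (log2 fold change 3.16, edgeR FDR 0.124) and Krt5, a keratin of basal surface epithelium, had 17.5, 1.23 and 2.88 CPM at 0 h and 35.8, 59.5 and 0.943 CPM at 6 h (log2 fold change 2.15, edgeR FDR 0.296). Both were highest in 6 h replicates 1 and 2 and lowest in 6 h replicate 3. The aldehyde dehydrogenase gene Aldh3a1, abundant in cornea and also present in lens, had 1196, 983 and 876 CPM at 0 h and 635, 699.7 and 329.6 CPM at 6 h (log2 fold change -0.88, edgeR FDR 0.0651). Of 3 stromal markers 2 were called lower, the collagen gene Col8a2, with 24.2, 15.4 and 30.9 CPM at 0 h and 13.4, 9.85 and 6.35 CPM at 6 h (log2 fold change -1.25, edgeR FDR 0.0309), and the proteoglycan Dcn, with 5.75, 2.37 and 2.39 CPM at 0 h and 0.464, 0.719 and 0.943 CPM at 6 h (log2 fold change -2.28, edgeR FDR 0.0262). Each of these calls was lost without 3 of the 6 libraries, left out 1 at a time. The growth factor receptor Pdgfra had 225, 190.5 and 133 CPM at 0 h and 122, 94.6 and 27.1 CPM at 6 h (log2 fold change -1.17, edgeR FDR 0.11). Neither of the 2 muscle genes tested (Myh11 and Ckm) nor the 1 platelet gene tested (Itga2b) was called.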
